A study of Mus musculus with 6 samples.

Results

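The genes described here are the 10 genes Il4, Il13, Rad50, Il5, Pdlim4, P4ha2, Csf2, Il3, Acsl6 and Fnip1, taken in that order of position from mouse chromosome 11, out of 55401 genes in each count table. They cover 915 kb (chr11:53602982-54518235, GRCm38), from the locus of the type 2 T helper (Th2) cytokines to Fnip1. They were chosen by name and position with results of this same comparison already known. Their differences between the groups are therefore given as a description, with standard errors and no p-value. Reads sufficed for a fit in 7 of the 10 genes, and Il4, Il5 and Csf2 had too few.

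The libraries are RNA sequencing of mouse splenic CD4+ T cells, bead-enriched as naive cells and stimulated for 24 h through CD3 and CD28. The control group (genotype WT) and the group with Satb1 conditional knockout (Satb1 flox/flox CD4-Cre, called Satb1 cKO) hold 3 libraries each. CD4-Cre expresses the recombinase under Cd4 control from the double-positive thymocyte onward, and hence also in cells that become CD8+. For strain, age, sex and the Cre status of control mice the sources used here give nothing, and an effect of Cre itself cannot be told apart from that of the deletion.

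Reads on genes ranged from 14895389 to 20266626 per library, and 1 read corresponded to 0.0492 to 0.0671 CPM (counts scaled to library size, the usual unit of level here). The labels do not say whether replicate libraries are separate mice. Errors and p-values therefore cover only the spread among these 6 libraries, and it could be purely technical. Satb1 itself stood at 712 to 851.5 CPM in control and 426 to 546 CPM in Satb1 cKO libraries, in counts over the whole gene that do not resolve the floxed part. Markers of T cells summed to 3424 to 3525 CPM in control and 2552 to 2640 CPM in Satb1 cKO libraries, with all 10 markers detected, 7 of them lower and 1 higher. Cd4, whose regulatory sequences drive the Cre, fell from 701 ± 19.96 to 209 ± 4.06 CPM (SD, n = 3). Markers of naive T cells (7 tested, 4 fell and 1 rose) summed to 2569 to 2968 and 2005 to 2149 CPM. Markers of antigen-experienced T cells (10 listed, 9 tested, 8 rose) summed to 715.5 to 795.4 and 1228 to 1281 CPM, with S100a4 at 0 reads throughout.

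IL-4, IL-13 and IL-5 are the defining products of Th2 cells, which act on B cells, mucosal tissue and eosinophils. Their genes lie around Rad50, a DNA repair gene whose far end holds a control region for the cytokines. SATB1 binds AT-rich DNA and was described earlier as folding this locus into loops in activated Th2 cells. Naive CD4+ T cells make little IL-4, IL-5 or IL-13 until they have been differentiated toward Th2. Il3 and Csf2 lie further along the chromosome and encode IL-3 and GM-CSF, growth factors for myeloid cells that activated T cells release early. Pdlim4, P4ha2, Acsl6 and Fnip1 have no cytokine function and lie among and beyond them.

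Promoter sequences are shown to give the base composition at the start of the genes, since SATB1 is known for binding AT-rich DNA. They are not related here to the differences between the groups. RefSeq starts (GRCm38.p6) were matched for 9 of the 10 genes, Rad50 being the other, and the 250 bases before each start were read along the gene's own strand. Capitals mark runs of at least 7 letters that are all A or T. The 5 printed windows are those of the cytokine genes Il4 (chr11:53618666-53618915, minus strand), Il13 (chr11:53634703-53634952, minus strand) and Il3 (chr11:54267280-54267529, minus strand), and of Pdlim4 (chr11:54069018-54069267, minus strand) and Fnip1 (chr11:54437929-54438178, plus strand).
Il4: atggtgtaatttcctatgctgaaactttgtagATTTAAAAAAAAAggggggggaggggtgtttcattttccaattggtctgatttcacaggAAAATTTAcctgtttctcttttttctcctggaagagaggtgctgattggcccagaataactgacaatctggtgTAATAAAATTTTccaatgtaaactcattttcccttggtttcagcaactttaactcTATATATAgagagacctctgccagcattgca
Il13: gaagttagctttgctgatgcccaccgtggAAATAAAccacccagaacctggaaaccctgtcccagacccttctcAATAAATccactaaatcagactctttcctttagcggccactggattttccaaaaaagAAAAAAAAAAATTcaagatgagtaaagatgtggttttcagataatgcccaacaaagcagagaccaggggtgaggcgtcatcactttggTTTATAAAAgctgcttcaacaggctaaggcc
Il3: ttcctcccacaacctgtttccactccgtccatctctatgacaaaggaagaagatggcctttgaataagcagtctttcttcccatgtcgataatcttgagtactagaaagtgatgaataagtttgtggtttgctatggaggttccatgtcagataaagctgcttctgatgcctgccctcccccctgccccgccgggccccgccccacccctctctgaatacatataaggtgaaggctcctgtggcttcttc
Pdlim4: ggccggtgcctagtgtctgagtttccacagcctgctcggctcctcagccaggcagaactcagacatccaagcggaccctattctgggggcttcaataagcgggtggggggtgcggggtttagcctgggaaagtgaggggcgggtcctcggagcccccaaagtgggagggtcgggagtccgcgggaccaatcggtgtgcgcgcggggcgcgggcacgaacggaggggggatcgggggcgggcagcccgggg
Fnip1: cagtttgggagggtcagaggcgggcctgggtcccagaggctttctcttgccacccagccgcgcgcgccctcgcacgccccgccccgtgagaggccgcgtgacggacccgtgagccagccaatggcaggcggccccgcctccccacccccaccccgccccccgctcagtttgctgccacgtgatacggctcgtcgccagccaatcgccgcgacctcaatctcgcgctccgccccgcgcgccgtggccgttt

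The windows differed in base composition. The Il4 and Il5 windows held 62.4% A and T, above 91.6% of the 32851 promoter windows in the RefSeq table, and the Il13 window held 56.8%. The median of all windows was 47.6%. The Il3, Csf2 and Acsl6 windows lay near that median, at 50.0%, 44.8% and 42.8%. Pdlim4, P4ha2 and Fnip1 had the windows poorest in A and T, at 30.8%, 30.0% and 26.4%, with 21, 21 and 32 CG dinucleotides against a median of 6. The RefSeq start used for P4ha2 lies 829 bases inside the gene as placed above, so its window falls within the gene, and that used for Csf2 lies 232 bases before the gene's annotated start. For the other 7 genes both starts were at most 26 bases apart. A run of at least 7 A or T letters occurred in 4 of the 9 windows (Il4, Il13, Il5 and Acsl6) and in 52.3% of all windows. GGAAA, the core letters bound by the activation factor NFAT, was found on either strand in 6 of the 9 windows, with 5 matches for Il4 and 4 for Il13, and in 55.6% of all windows. GATAA, letters bound by GATA factors such as the Th2 factor GATA3, was found on either strand in 4 of the 9 windows (Il13, Csf2, Il3 and Acsl6) and in 22.6% of all windows. TGANTCA, the AP-1 motif, was found on either strand in 1 of the 9 and in 6.75% of all. Each motif was counted without regard to overlap with the others, and a match is only a match of letters.

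**Figure D1:**
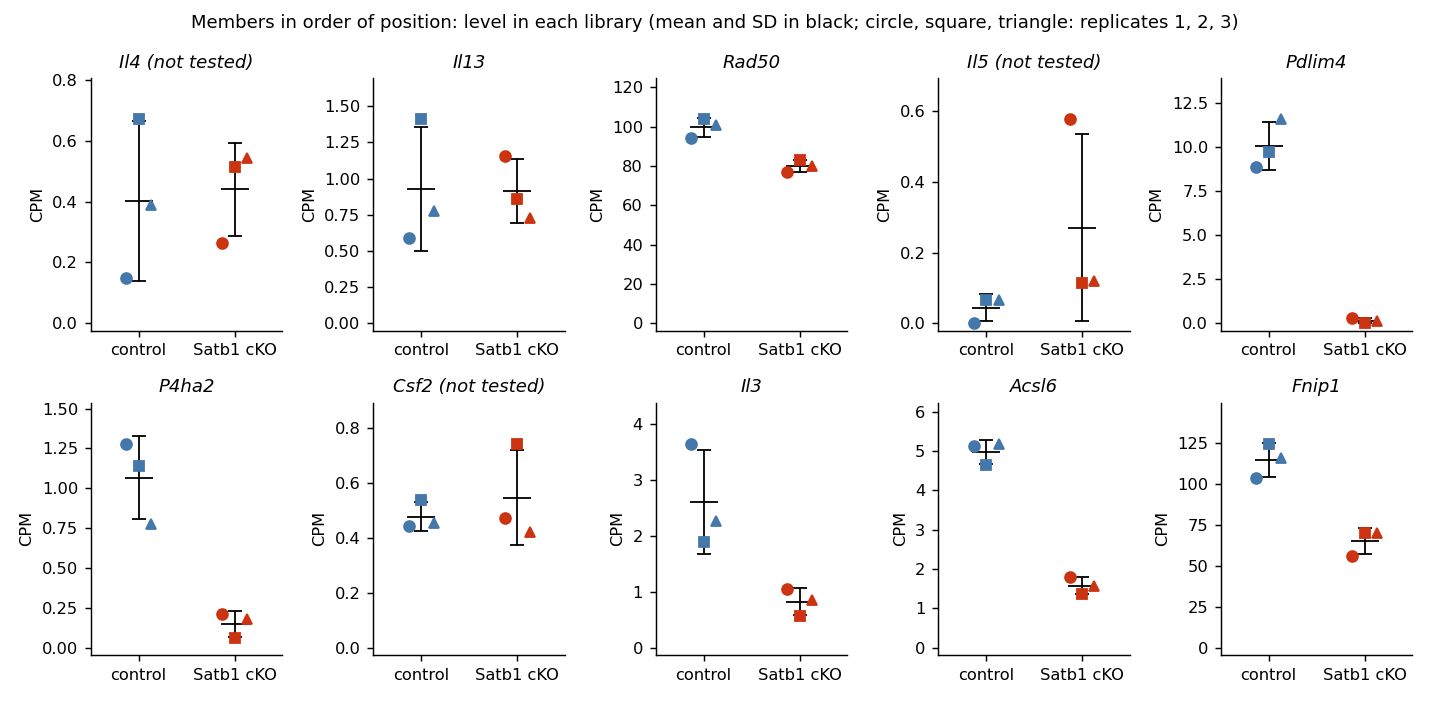
Level of each of the 10 genes in CPM (linear axis from 0, separate for each gene) in the 3 control (blue) and 3 Satb1 cKO (red) libraries, in order of position, with mean and SD in black. Il4, Il13 and Csf2 overlap between the groups. Rad50, Pdlim4, P4ha2, Il3, Acsl6 and Fnip1 lie lower in every Satb1 cKO library than in every control library. Il5 lies higher in every Satb1 cKO library, on very few reads.

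The Th2 cytokine genes were close to silent in both groups. Il4 (ENSMUSG00000000869.12, chr11:53602982-53618669, minus strand) was counted in 3, 10 and 6 reads in control replicates 1, 2 and 3 and in 5, 9 and 9 reads in Satb1 cKO replicates 1, 2 and 3. This equals 0.148, 0.671 and 0.389 CPM in control and 0.263, 0.515 and 0.543 CPM in Satb1 cKO. The groups overlapped, and the ratio of Satb1 cKO to control over all reads was 1.15 (95% exact binomial interval 0.602 to 2.24, which covers counting error only). A difference within these bounds was not detectable at this depth. Larger ones could be missed too, since the control libraries alone spanned 0.148 to 0.671 CPM.

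Il13 (ENSMUSG00000020383.1, chr11:53631324-53634702, minus strand) had 12, 21 and 12 reads in control and 22, 15 and 12 reads in Satb1 cKO. Its level was 0.926 ± 0.429 CPM in control and 0.913 ± 0.221 CPM in Satb1 cKO (SD, n = 3). Control replicate 2 was the highest and control replicate 1 the lowest of the 6 libraries, so the control range contained the whole Satb1 cKO range. The log2 fold change of Satb1 cKO over control was 0.03 (SE 0.38), and its sign changed when single libraries were left out (-0.26 without control replicate 1, 0.43 without control replicate 2).

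Il5 (ENSMUSG00000036117.2, chr11:53720794-53725106, plus strand) was the least detected of the 10 genes in control, with 0, 1 and 1 reads. The Satb1 cKO libraries had 11, 2 and 2 reads, each above every control library in CPM, and replicate 1 alone held 11 of the 15. The ratio of Satb1 cKO to control was 7.15, with a counting interval of 1.66 to 64.5 that does not include the spread between libraries. Gm12214, annotated on the opposite strand, shares 417 exonic bases with Il5. If the counting ignored strand, reads in these bases cannot be assigned to either gene and may be missing from the counts of Il5.

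Basophils, mast cells, eosinophils and type 2 innate lymphoid cells can also make or respond to these cytokines, and bead enrichment from spleen can leave some behind. Of 12 basophil and mast cell markers, 10 were tested and 9 rose. Their summed level went from 14.6 to 23.3 CPM in control to 59.8 to 62.5 CPM in Satb1 cKO, with the basophil protease gene Prss34 and the stem cell factor receptor gene Kit at the top and Tpsb2 at 0 reads throughout. Of 8 eosinophil markers, 5 were tested and all 5 rose, from a sum of 3.79 to 7.19 CPM to one of 23.1 to 31.5 CPM, with Prg2, encoding major basic protein, highest. Of 8 markers of type 2 innate lymphoid cells, 5 were tested and 3 rose (sums of 44.2 to 47.7 and 46.1 to 54.2 CPM), with Gata3, which T cells express too, at the top. Of 15 myeloid markers, 12 were tested and all 12 rose (sums of 23.1 to 29.1 and 88.3 to 196 CPM, led by Lyz2). Red cell transcripts rose in all 7 tested genes of their list, from a sum of 25.1 to 31.5 CPM to one of 310 to 1862 CPM. Markers of NK cells (2 of 3 tested rose), of gamma-delta T and NKT cells (5 of 5) and of B cells (2 of 6 rose, with overlapping sums) had sums of 5.86 to 9.33 and 13.1 to 20.3 CPM, 8.30 to 12.02 and 24.6 to 32.1 CPM, and 226 to 288 and 242 to 303 CPM. The part of such cells in the levels of Il4, Il13, Il5, Il3 and Csf2 was not tested. In bulk libraries, fewer cells of a type and less RNA per cell cannot be told apart.

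Rad50 (ENSMUSG00000020380.16, chr11:53649519-53707319, minus strand), whose product tethers broken DNA ends in the MRN complex, was by contrast well expressed amid the silent cytokine genes. It stood at 94.1, 104 and 101 CPM in control and 77.1, 82.9 and 79.7 CPM in Satb1 cKO. Every Satb1 cKO library lay below every control library, and the mean was 80.2% of control (log2 fold change -0.32, SE 0.051). It had 5015 reads in control and 4238 in Satb1 cKO, so this small difference rested on far more reads than any cytokine gene had.

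Pdlim4, P4ha2, Il3, Acsl6 and Fnip1, with left ends on the chromosome at least 452 kb beyond that of Il4, were lower in Satb1 cKO. Csf2 lies among them, was not fitted, and had overlapping groups with a ratio of 1.15 over all reads. Pdlim4 (ENSMUSG00000020388.12, chr11:54054928-54069014, minus strand) encodes a PDZ and LIM domain protein that binds the actin cytoskeleton. It was counted in 181, 145 and 179 reads in control and 6, 0 and 2 reads in Satb1 cKO, that is 8.91, 9.74 and 11.6 CPM against 0.315, 0 and 0.121 CPM. The gene was thus easily detected in each control library and at or near 0 in each Satb1 cKO library, at 1.44% of the control mean. The fitted log2 fold change was -5.996 (SE 0.37). With 8 reads left in 1 group the size of the fold is loosely bounded: control exceeded Satb1 cKO 66.2-fold over all reads, with a counting interval of 33.3 to 154. Without Satb1 cKO replicate 1, which held 6 of those 8 reads, the fitted value was -7.25.

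P4ha2 (ENSMUSG00000018906.14, chr11:54100095-54131665, plus strand) lies 31.1 kb beyond Pdlim4 on the chromosome and is transcribed in the opposite direction. It encodes a catalytic subunit of collagen prolyl 4-hydroxylase. Reads numbered 26, 17 and 12 in control and 4, 1 and 3 in Satb1 cKO (1.28, 1.14 and 0.778 CPM against 0.210, 0.0572 and 0.181 CPM). The groups did not overlap, although the gene was near the limit of detection in Satb1 cKO, and the log2 fold change was -2.78 (SE 0.47).

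Csf2 (ENSMUSG00000018916.5, chr11:54247271-54249667, minus strand) lies between P4ha2 and Il3 and had too few reads for the fit. It had 9, 8 and 7 reads in control and 9, 13 and 7 in Satb1 cKO, at 0.478 ± 0.052 and 0.546 ± 0.173 CPM (SD, n = 3). The groups overlapped and the ratio of Satb1 cKO to control was 1.15 (counting interval 0.648 to 2.07). Gm12223 overlaps 96 exonic bases of Csf2 on the opposite strand.

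Il3 (ENSMUSG00000018914.5, chr11:54265303-54267277, minus strand) lies only 15.6 kb beyond Csf2 on the chromosome. It was counted in 74, 28 and 35 reads in control and 20, 10 and 14 in Satb1 cKO. In CPM this was 3.64, 1.88 and 2.27 against 1.05, 0.572 and 0.845, so the highest Satb1 cKO library stayed below the lowest control library. Control replicate 1 was the highest, and the mean in Satb1 cKO was 31.7% of control (log2 fold change -1.67, SE 0.33). The ratio of Satb1 cKO to control over all reads was 0.306 for Il3 (counting interval 0.213 to 0.433), beside 1.15 for Csf2. Such intervals leave out the spread between libraries, and the difference between both genes was not tested.

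Acsl6 (ENSMUSG00000020333.17, chr11:54303798-54364756, plus strand) encodes a long-chain acyl-CoA synthetase, which activates fatty acids. It stood at 5.12, 4.63 and 5.19 CPM in control (104, 69 and 80 reads) and 1.79, 1.37 and 1.57 CPM in Satb1 cKO (34, 24 and 26 reads). Both groups were tight and well apart, with a log2 fold change of -1.65 (SE 0.19). Gm12224 overlaps 202 exonic bases on the opposite strand and had 1 read in total, in control replicate 2.

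Fnip1 (ENSMUSG00000035992.15, chr11:54438199-54518235, plus strand) encodes a partner of folliculin that acts on AMPK and mTORC1 and is needed for lymphocyte development. It was the most abundant of these lower genes, at 104, 125 and 116 CPM in control and 55.9, 70.0 and 69.7 CPM in Satb1 cKO. The lowest control library lay well above the highest Satb1 cKO library, and the mean in Satb1 cKO was 56.9% of control (log2 fold change -0.81, SE 0.088).

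In the fit over all 13364 genes tested, 6 of the 7 fitted genes (all but Il13) had an adjusted p under 0.05 and were lower, and 0 were higher. By the same criterion 20.7% of all tested genes were lower and 21.6% higher. The same 6 genes had no overlap between groups with Satb1 cKO lower, which held for 26.5% of all tested genes. Because the genes were selected on this comparison, nothing is read from these counts. Pdlim4 (505 reads in control and 8 in Satb1 cKO) and P4ha2 (55 and 8) passed the filter on low counts through their control libraries only. Il3 (137 and 44) also needed its control libraries to pass, since Satb1 cKO replicate 2, with 10 reads, fell just short of the cutoff. Il13 (45 and 49) passed too, and the filter removed Csf2 (24 and 29), Il4 (19 and 23) and Il5 (2 and 15).

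**Figure D2:**
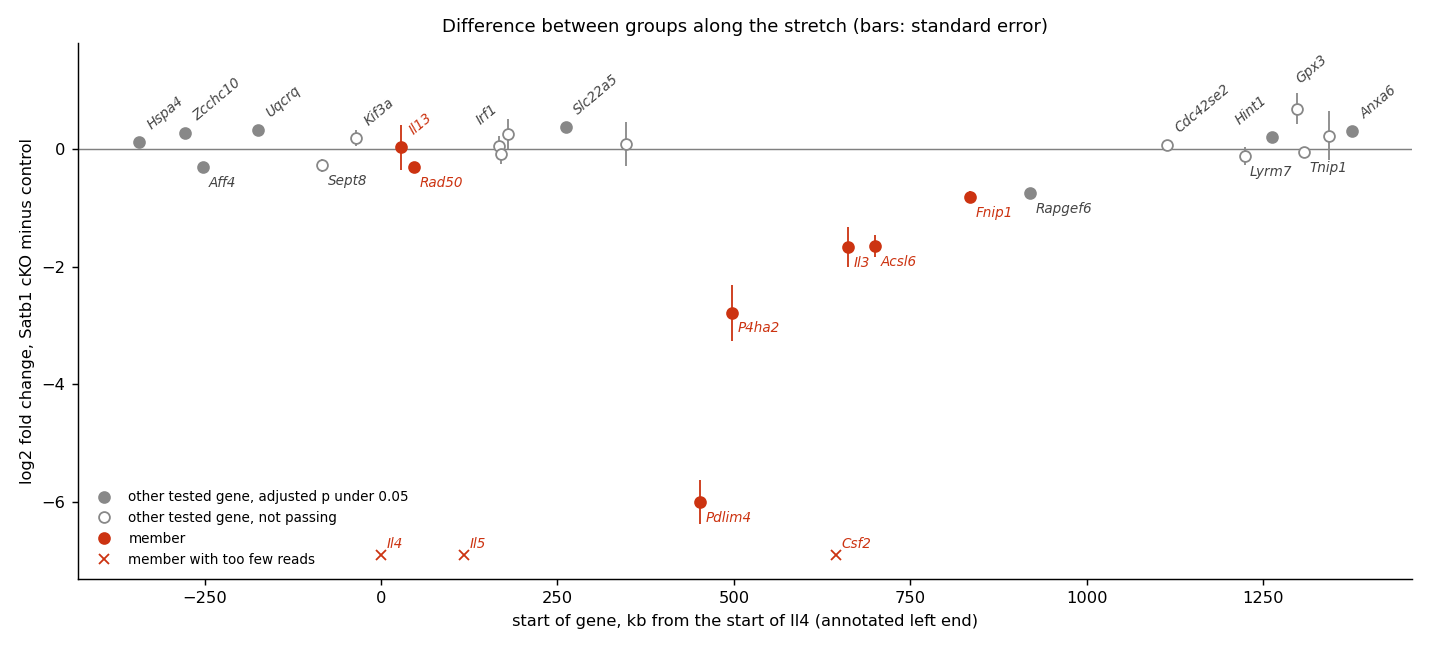
Log2 fold change (Satb1 cKO minus control, bars give the standard error) of each tested gene against its position. Position is the distance in kb of a gene's left end on the chromosome from that of Il4. The described genes are in red and others in grey (filled where the adjusted p was under 0.05). Tested genes up to Slc22a21 and past Rapgef6 lie between -0.32 and 0.68, and those from Pdlim4 to Rapgef6 lie between -5.996 and -0.75. All of the latter except Rapgef6 are described genes, chosen with this comparison known. Csf2, which lies among them, was not fitted and had a ratio of Satb1 cKO to control of 1.15 over all reads. The 3 crosses at the bottom mark positions of genes with too few reads and carry no value on the vertical axis.

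The other genes of the stretch were tested in the same fit. Within 500 kb of either end and in between lie 59 other annotated genes, of which 19 had enough reads. Of these, 6 rose (Hspa4, Zcchc10, Uqcrq, Slc22a5, Hint1 and Anxa6) and 2 fell (Aff4 and Rapgef6), with a median log2 fold change of 0.12 against 0.003 over all tested genes. The count of 2 lower became 4 without control replicate 1, when Sept8 and Irf1 joined. Hspa4 and Zcchc10, with changes of 0.11 and 0.26, lost their calls in several alternatives.

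Between Il5 and Pdlim4 lie the immune transcription factor gene Irf1 and a group of solute carriers. Irf1, which encodes an interferon-responsive activator, stood at 130, 223 and 224 CPM in control and 216, 191 and 189 CPM in Satb1 cKO. Control replicate 1 was the lowest of the 6 libraries, and Irf1 did not pass (adjusted p = 0.822 by edgeR, log2 fold change 0.05, SE 0.16). Without that library the other control values lay above the Satb1 cKO values and Irf1 was called lower (-0.18, adjusted p = 0.0189). Slc22a5, encoding a carnitine transporter, stood at 20.4 ± 0.675 CPM in control and rose to 26.1 ± 3.13 CPM in Satb1 cKO (adjusted p = 0.00787 by edgeR, log2 fold change 0.36, SE 0.092). Slc22a21, its relative, did not pass, with 0.561 ± 0.155 and 0.604 ± 0.026 CPM (adjusted p = 0.885 by edgeR). The protein-coding genes Gm17334, which shares 135 exonic bases with Irf1 on the opposite strand, and Gm12216 did not pass either (log2 fold changes of -0.09 and 0.25). Pdlim4 was the next gene after Slc22a21 with enough reads.

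The 2 tested genes nearest each outer end gave different pictures. On the Il4 side, Kif3a, encoding a kinesin motor subunit, ends 1.02 kb from Il4 and stood at 8.33 ± 1.197 and 9.40 ± 0.447 CPM (log2 fold change 0.18, SE 0.13, adjusted p = 0.284 by edgeR). Sept8, encoding a septin, was at 14.98 ± 1.01 and 12.3 ± 1.28 CPM and narrowly missed the threshold (-0.28, SE 0.11, adjusted p = 0.0511 by edgeR). On the Fnip1 side, Rapgef6 starts 4.61 kb past the end of Fnip1 and encodes an exchange factor for Rap GTPases. It fell from 388, 444 and 444 CPM in control to 244, 260 and 256 CPM in Satb1 cKO (adjusted p = 1.49e-06 by edgeR, log2 fold change -0.75, SE 0.055), beside the value of -0.81 for Fnip1. Cdc42se2, encoding a small Cdc42 effector 199 kb from Fnip1, was at 172.6 ± 10.98 and 180.5 ± 2.14 CPM, with overlapping groups and no call (0.07, SE 0.049, adjusted p = 0.313 by edgeR). Meikin, a meiosis gene between Acsl6 and Fnip1, had 0 reads in every library.

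Levels of different genes can be compared only per length, and for this the reads were divided by the combined exon length (RPKM, the CPM per kilobase of exon). In control, Rad50 (18.5 ± 0.921 RPKM) and Fnip1 (16.1 ± 1.47 RPKM) led, with ranges that nearly touched (lowest 17.51 for Rad50, highest 17.50 for Fnip1). Il3 (4.13 ± 1.47 RPKM) and Pdlim4 (3.94 ± 0.539 RPKM) followed and overlapped with each other. The 6 others were below 1 RPKM in mean, in the order Il13, Csf2, Acsl6, Il4, P4ha2 and Il5. Of the neighbours in that order, Il13 and Csf2 overlapped, as did Acsl6 and Il4, and Il4 and P4ha2.

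In Satb1 cKO the first 3 places were unchanged, at 14.9 ± 0.541 RPKM for Rad50, 9.16 ± 1.13 for Fnip1 and 1.31 ± 0.381 for Il3. Pdlim4 stood at the ninth place with 0.0568 ± 0.062 RPKM, overlapping with P4ha2 below it. Il3 was thus the most abundant cytokine transcript of the stretch per length in both groups, although in Satb1 cKO its range overlapped with that of Il13 (0.757 ± 0.183 RPKM). For scale, Il2, the main early cytokine of naive CD4+ T cells, was at 174 ± 51.6 RPKM in control and 135 ± 14.7 RPKM in Satb1 cKO.

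**Figure D3:**
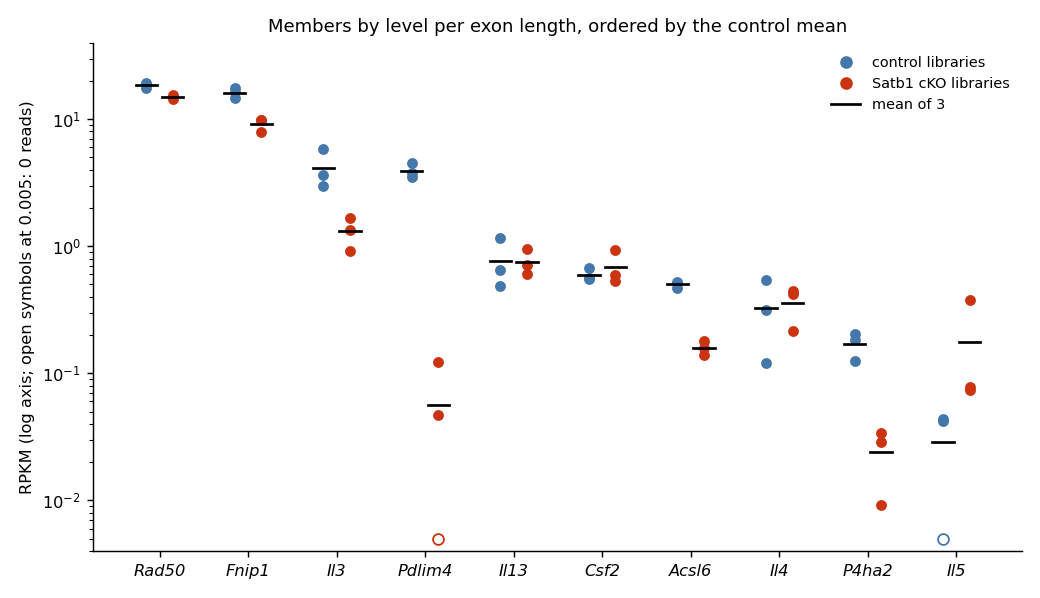
Level per exon length (RPKM, log axis) of the 10 genes in each control (blue) and Satb1 cKO (red) library, ordered by the control mean, with group means as black lines and libraries with 0 reads as open symbols at the bottom. Rad50 and Fnip1 lie near 10 RPKM or above, the cytokine genes other than Il3 lie near or below 1 RPKM in both groups, and Pdlim4 moves from 3.94 to 0.0568 RPKM.

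For each fitted gene the 2 most alike protein-coding genes were sought by the root-mean-square difference of log2 CPM, each centred on its own mean over the 6 libraries (prior count of 2). Their patterns carry the same group difference, so likeness is a description only. Gm14085 on chromosome 2 was nearest to Pdlim4 (difference 0.32), falling from 67.7 ± 4.68 to 2.37 ± 1.28 CPM. Spin4 on chromosome X was nearest to Il3 (0.18), with 11.1 ± 4.44 and 3.79 ± 0.814 CPM. Klrb1f, encoding a lectin-like receptor, was nearest to P4ha2 (0.16), and Snn, encoding stannin, to Acsl6 (0.093). For Fnip1 the closest were Ankrd44 and Arrb1, the latter encoding beta-arrestin 1 (0.067 and 0.068), and for Rad50 Arl6ip5 and Secisbp2l (0.014 and 0.018). Tbc1d10c was nearest to Il13 (0.10). None of these genes lies on chromosome 11.

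Genes known to act on, with or beside the 10 were followed in 10 lists holding 135 different genes, of which 117 were tested. Of these, 47 rose and 30 fell. The lists were written with earlier results of these data known and carry no test of their own. They are to be read beside the 21.6% of all tested genes that rose and the 20.7% that fell.

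The 23 tested regulators that favour Th2 cytokines had a median log2 fold change of 0.050, and 11 of them rose and 5 fell. Gata3, the defining Th2 factor, did not pass, with 33.3 ± 2.12 CPM in control and 28.8 ± 4.09 CPM in Satb1 cKO (adjusted p = 0.0989 by edgeR). Stat6, which carries the IL-4 signal, and Irf4 did not pass either, at log2 fold changes of 0.001 and -0.03. The 4 called genes of smallest p went both ways. Rbpj, the DNA-binding partner of Notch, rose from 170 ± 8.15 to 479 ± 36.1 CPM, and Il2ra, the IL-2 receptor alpha chain, from 626 ± 39.7 to 1059 ± 27.0 CPM. Ikzf1, encoding Ikaros, and Tcf7, encoding TCF-1, fell with log2 fold changes of -0.97 and -0.64.

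Among 18 tested regulators that restrain Th2 cytokines, 9 rose and 6 fell (median 0.16). Zbtb32, encoding a repressor of GATA3, rose most, from 9.05 ± 0.946 to 118 ± 14.3 CPM (adjusted p = 1.65e-09 by edgeR, log2 fold change 3.69, SE 0.11). Runx3, a partner of T-bet that silences Il4, and Socs1, a brake on cytokine signalling, rose by 0.98 and 1.15. Dnmt1, the maintenance DNA methyltransferase, fell by 0.59. Of 13 tested chromatin and looping factors, 2 rose and 5 fell (median -0.04), with values between -0.38 and 0.21. The cohesin genes Smc3 and Smc1a and the cohesin loader gene Nipbl fell, as did the cohesin gene Rad21 and the methyltransferase gene Kmt2a. The cohesin gene Stag2 rose (log2 fold change 0.18), as did Smarca4, a remodeller subunit (0.21), so that cohesin genes moved in both directions. Ctcf did not pass (-0.09, adjusted p = 0.116 by edgeR).

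Receptors and signal carriers of the cytokines were tested in 14 genes, of which 7 rose and 3 fell (median 0.21). Il4ra did not pass, with 265 ± 51.7 CPM in control and 256 ± 11.8 CPM in Satb1 cKO (adjusted p = 0.762 by edgeR). Csf2rb, the receptor chain shared by IL-3, IL-5 and GM-CSF, rose from 3.11 ± 1.03 to 10.1 ± 3.37 CPM, and its IL-3-specific relative Csf2rb2 from 2.28 ± 0.075 to 5.77 ± 1.68 CPM. Csf2ra rose as well (log2 fold change 0.85), whereas Il3ra did not pass (0.31, adjusted p = 0.119 by edgeR) and Il5ra was too rare to test. These receptors are typical of myeloid cells, whose markers rose in the same libraries as given above, and their part in these rises was not tested. Cish, a target of STAT5, and the kinase gene Tyk2 rose by 0.85 and 0.31, and Jak1 and Jak3 fell by 0.26 and 0.42.

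Cytokine genes encoded elsewhere were followed for comparison. Of 16 tested, 9 rose and 2 fell, with a median of 0.52. Lif and Lta, early products of activated T cells, rose by log2 fold changes of 0.86 and 1.17, Il21 rose by 2.72, and Il16 fell by 0.79. Il2 did not pass (-0.37, SE 0.16, adjusted p = 0.0832 by edgeR). Il9 and Il31, other cytokines linked to Th2 cells, were too rare to test.

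**Figure D4:**
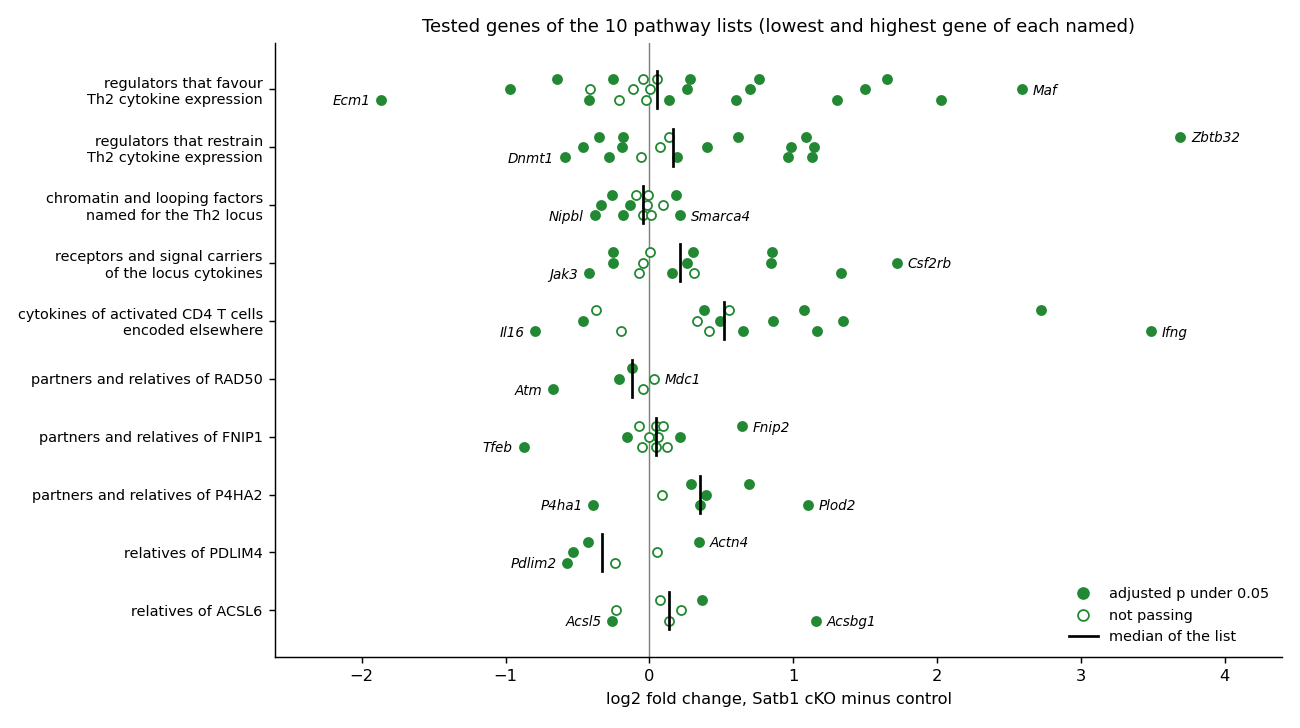
Log2 fold change (Satb1 cKO minus control) of every tested gene in the 10 lists, filled where the adjusted p was under 0.05 and open otherwise, with the median of each list as a black line. The lists spread to both sides of 0, from -1.87 for Ecm1 to 3.69 for Zbtb32.

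Partners and relatives of the non-cytokine genes were compared with them. Of 5 tested partners of RAD50 in the damage response, 3 fell: Atm, the kinase that the MRN complex recruits, by 0.67, and the other 2 subunits of that complex, Nbn and Mre11a, by 0.21 and 0.12. The adjusted p for Mre11a was 0.0439 by edgeR. Of 12 partners of FNIP1, 2 rose and 2 fell. Fnip2, the paralogue of Fnip1, rose from 13.3 ± 1.19 to 20.7 ± 1.30 CPM (adjusted p = 0.000243 by edgeR, log2 fold change 0.64, SE 0.094), beside the lower values of Fnip1. Flcn, encoding folliculin, did not pass (0.06, adjusted p = 0.509 by edgeR), and Tfeb, a lysosomal transcription factor downstream, fell by 0.87.

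Of 7 tested relatives of P4HA2, 5 rose and 1 fell. P4ha1, which encodes the alternative catalytic subunit, fell by 0.39 from 65.5 to 49.9 CPM, while P4hb, the shared beta subunit, rose by 0.29. The collagen lysyl hydroxylase genes Plod2 and Plod3 rose by 1.10 and 0.69. Of 6 tested relatives of PDLIM4, 1 rose and 3 fell. Pdlim1 and Pdlim2 fell by 0.43 and 0.57, and Pdlim5 and Pdlim7 did not pass. Actn1 fell by 0.53 and Actn4, which encodes another alpha-actinin, rose by 0.34. Of 7 tested relatives of ACSL6, 2 rose and 1 fell: Acsl4 and Acsbg1 rose by 0.36 and 1.16, and Acsl5 fell by 0.26.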

How the data were processed

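Each library has 1 table of raw counts, which the authors deposited without scaling. The submitters' processing notes name STAR 2.7.3a, HTSeq 0.12.4 and mm10. Annotation release and strand setting: not given in the sources used here. HTSeq's summary lines name no gene and entered neither library sizes nor tests. Reads on no feature were 9.18% to 9.50% of each control library and 7.32% to 7.61% of each Satb1 cKO library, and ambiguous reads 5.40% to 5.57%. Gene positions (1-based), symbols and exon lengths came from GENCODE M21 (GRCm38), which placed 55141 of 55401 genes. Groups and replicate numbers came from sample titles. Each pair of libraries within a group differed by more than sampling noise (chi-square of 2.18 to 7.62 per degree of freedom), and all 6 count as samples.

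Counts were fitted with edgeR 4.0.16 in R 4.3.3: filterByExpr left 13364 genes, TMM scaling, and a quasi-likelihood test with group as the only term. Benjamini-Hochberg adjustment ran over all tested genes, with a threshold of 0.05. Fold changes of genes named without a p passed this test, except for the 10 described genes and where stated. CPM and RPKM use TMM-scaled library sizes. Standard errors come from the coefficient and its F statistic. Ratios of summed reads carry exact binomial (Clopper-Pearson) intervals at 95%, which cover counting error only, since reads without molecular identifiers are not independent molecules. The fit was tested on simulated counts.

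Named genes were the 10, Satb1, tested protein-coding genes between them and the 2 nearest to each end, up to 4 called genes of smallest p per pathway list with textbook partners, the 2 most alike genes of each fitted gene (not all printed), and the leading genes of 11 marker lists. Further called genes of the stretch, further list members with values, and Gm12214, Gm12223, Gm12224 and Meikin were named after their values were seen. The 10 genes and all lists were chosen with earlier results of these data known. The alternatives tried were other scalings, DESeq2 1.42.0, other filters, a larger prior count, a replicate block and leaving out each library.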

Additional observations from a re-analysis of the deposited data

Results flagged for a closer look

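Il5 had 15 reads in the Satb1 cKO libraries against 2 in control and was left out of the fit for low counts. Each Satb1 cKO library lay above each control library, at 0.578, 0.114 and 0.121 CPM against 0, 0.0671 and 0.0648 CPM. Such separation is common here, since the groups did not overlap, in either direction, in 7142 of the 13364 tested genes. Replicate 1 gave 11 of the 15 reads, and the other Satb1 cKO libraries had 2 each. Eosinophil and basophil markers were also higher in these libraries, and their part in this result was not tested.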

How the results depend on the processing

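The values of the described genes are given as ranges only, since the genes were chosen with this comparison known. Over 13 alternatives the log2 fold change ranged from -0.37 to -0.29 for Rad50, -1.76 to -1.57 for Acsl6 and -0.89 to -0.71 for Fnip1, and that of Il3 from -1.895 to -1.33. P4ha2, which the stricter filter removed, ranged from -3.12 to -2.16 over 12. Pdlim4 ranged from -7.25 to -5.45 when single libraries were left out and was at -5.26 with a prior count of 2, which put P4ha2 at -2.16. Il13 ranged from -0.26 to 0.43, with 3 sign changes in 12 alternatives (the stricter filter removed it too). Without a filter the fit gave log2 fold changes of 0.16 for Il4, 0.18 for Csf2 and 2.58 for Il5. The count of other genes of the stretch that fell ranged from 2 to 4 when single libraries were left out, and Irf1 from -0.18 (called without control replicate 1) to 0.17. Hspa4 lost its call in 6 and Zcchc10 in 3 alternatives, and Sept8 (lower) gained one in 4. Same-numbered libraries of both groups did not deviate together (correlations of 0.021, -0.013 and 0.028). The labels give no pairing, and these values cannot show whether same-numbered libraries shared a day or batch. With the replicate block the fit called 2861 genes higher and 2702 lower, against 2885 and 2766 without it. At 0.0492 to 0.0671 CPM per read, depth limits what can be said of Il4, Il5, Csf2 and Il13.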

Other observations

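Of the 59 other annotated genes of the stretch, 22 had 0 reads in every library and 18 had reads but too few to test. Among the latter, Slc22a4, encoding an ergothioneine transporter just before Pdlim4, had 3, 4 and 3 reads in control and 7, 4 and 12 in Satb1 cKO. Control replicate 1 was the control library with the fewest CPM of Il4 (0.148), Il13 (0.591) and Irf1 (130) and the most of Il3 (3.64) and P4ha2 (1.28). Rad50 (94.1 CPM), Pdlim4 (8.91 CPM) and Fnip1 (104 CPM) were also lowest there among controls. This library was singled out after its values were seen.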
